A study of Homo sapiens with 6 samples.

Results

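The keratin gene family was examined in transcripts that came down with AGO2, an Argonaute protein that carries microRNAs. The members were the keratin genes that had a probe set with a single gene symbol of the form KRT, a number and at most 1 letter. Keratin-associated proteins and pseudogenes were left out, and a gene with several probe sets was read from its brightest one, by the mean of all arrays. This gave 48 of the 55 keratin genes in the RefSeq gene table, among 18417 named genes on the array. KRT6A, KRT6B, KRT6C, KRT17, KRT81, KRT82 and KRT86 had no such probe set and were not analysed here.

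All arrays came from PC3 cells, an established androgen-independent prostate cancer line. One group received a miR-205 mimic (n = 3 arrays) and the other a negative control mimic (n = 3 arrays), and the series calls these biological triplicates. Each of the 6 arrays read an AGO2 immunoprecipitate, and no input RNA was analysed here. A change in the amount of a transcript and a change in its binding to AGO2 therefore cannot be told apart, and neither can fewer expressing cells and less RNA per cell. Values are log2 signals from RMA, and a difference of 1 on this scale is a change of 2-fold. Medians of the arrays lay between 6.82 and 6.86. Differences between arrays had an SD over genes of 0.275 to 0.339 across the groups. Within a group this SD was 0.131 to 0.146 for miR-205 and 0.155 to 0.218 for the control.

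Keratins are the intermediate filament proteins of epithelial cells. Each filament is built from obligate pairs of an acidic type I and a basic type II keratin, and the pair in use depends on the epithelium. KRT8 with KRT18 is the pair of simple epithelia, including the luminal cells of the prostate, KRT5 with KRT14 is that of basal cells, and KRT1 with KRT10 that of the upper epidermis. Filaments attach to desmosomes and hemidesmosomes through plakins and plakophilins. Most type II genes lie in a cluster on chromosome 12, at whose end the type I gene KRT18 also sits, and the other type I genes lie on chromosome 17. miR-205 is abundant in basal epithelial cells and is known for repressing ZEB1 and ZEB2, which repress epithelial genes. The sequence of the mature strand in RefSeq (GRCh38.p14, chr1:209432166-209432187, plus strand) is given here because its seed, bases 2 to 8, shown in capitals, sets which transcripts the mimic can pair with.
hsa-miR-205-5p: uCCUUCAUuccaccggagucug

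With the miR-205 mimic 5 keratins rose, namely KRT80, KRT7, KRT8, KRT18 and KRT15, and 0 fell (limma with Benjamini-Hochberg adjustment over all named genes, threshold 0.05). The 5 were 10.4% of the 48 members, while 26.6% of all genes passed in either direction, 12.6% upward and 14% downward. The share of keratins that rose was thus not above that of all genes, but this order depends on dim genes. With only genes above the yardstick of 6.12 described with the cell type markers, 5 of 23 keratins rose, and so did 2498 of 13373 genes. Of the 48 members, 3 had an unadjusted p under 0.01 and a rise of at least 1.5-fold, which is 6.25%, against 2.19% of all genes. The median log2 change was 0.03 over the keratins and -0.02 over all genes. With 1 array left out the keratin median was -0.0053 to 0.05, the lowest without negative control replicate 2. The other 43 keratins had changes between -0.36 and 0.15, and 41 of them moved by less than 0.2 in either direction. Their smallest adjusted p was 0.0574, and 3 had an unadjusted p under 0.05. The matching shares over all genes are not given, so these counts only describe the keratins. The 0 falls by limma became 1 or 2 under some other settings, which added KRT75 or KRT74.

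KRT80, a type II keratin of many epithelia that is found near desmosomes, had the largest rise. Its signal was 8.86, 8.90 and 8.52 in the miR-205 arrays, against 7.31, 7.55 and 7.42 in the control arrays. The lowest miR-205 array stood well above the highest control array. The log2 change was 1.33 ± 0.11 (SE, n = 3 per group), or 2.51-fold, with an adjusted p of 9.32e-05 by limma.

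KRT7, the type II keratin of glandular and ductal epithelia, had 9.74, 9.74 and 9.65 in the miR-205 arrays, against 8.64, 8.98 and 8.65 in the control arrays. The groups did not overlap, and negative control replicate 2 was the highest control array. The log2 change was 0.96 ± 0.09 (SE), or 1.94-fold, with an adjusted p of 0.000226.

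KRT8 and KRT18, the partners of simple epithelial filaments, both rose. KRT8 had 11.97, 12.14 and 12.09 in the miR-205 arrays, against 11.18, 11.23 and 11.13 in the control arrays. Its log2 change was 0.89 ± 0.07 (SE), or 1.85-fold, with an adjusted p of 6.39e-05. KRT18 had 11.92, 11.90 and 11.97 in the miR-205 arrays, against 11.36, 11.38 and 11.40 in the control arrays. For both genes the gap between the groups was several times the spread within either. The log2 change of KRT18 was 0.55 ± 0.06 (SE), or 1.46-fold, with an adjusted p of 0.000274. A further probe set with KRT18 as its only symbol had a change of 0.58. Processed copies of KRT8 and KRT18 exist elsewhere in the genome, and what they add to these signals was not tested.

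KRT15, a type I keratin of basal cells and of the hair follicle bulge, rose less. It had 8.18, 8.13 and 8.39 in the miR-205 arrays, against 7.81, 8.09 and 7.85 in the control arrays. The highest control array, negative control replicate 2, came close to the lowest miR-205 array. The log2 change was 0.32 ± 0.10 (SE), or 1.25-fold, with an adjusted p of 0.0377. This call ended when any 1 array other than negative control replicate 2 was left out, with adjusted p of 0.0505 to 0.125. It also ended when all probe sets were tested together (0.0895) and with the replicate number as a block (0.057), and it held without negative control replicate 2 (0.00812).

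**Figure D1:**
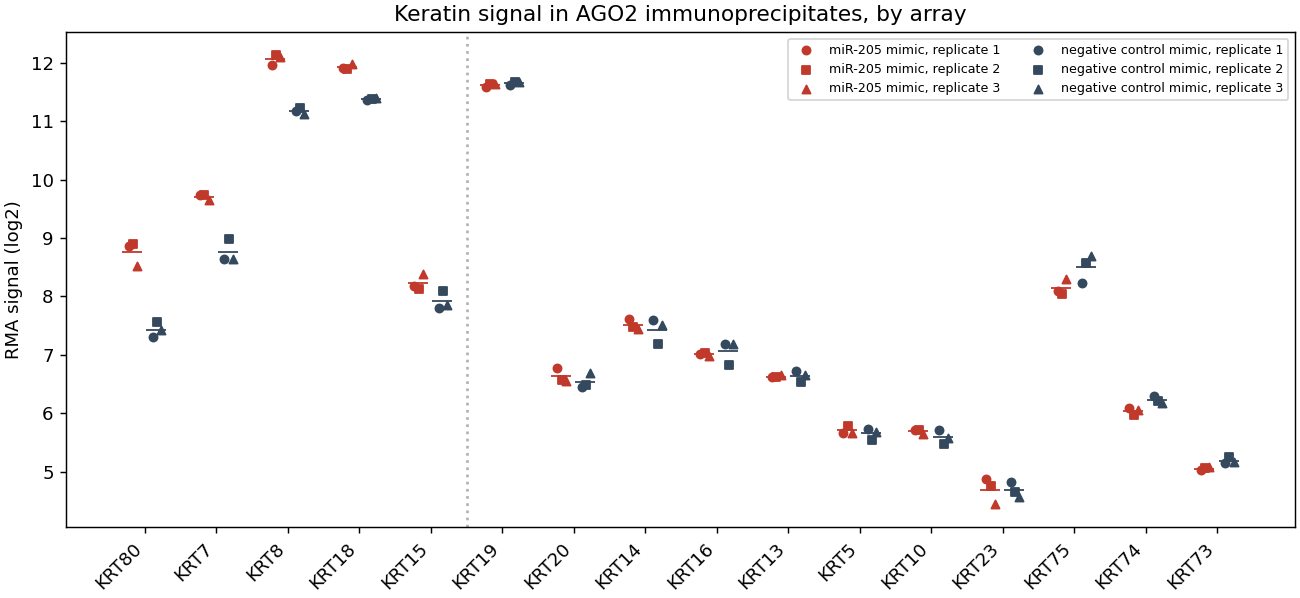
Signal (RMA, log2) of 16 named keratins in each array, with miR-205 arrays in red on the left of each gene and control arrays in blue on its right. Marker shape gives the replicate number, short lines are group means, and the 5 keratins left of the dotted line passed the test. KRT80 sits at 8.52 to 8.90 with miR-205 and 7.31 to 7.55 with the control, while KRT19 sits at 11.59 to 11.64 and 11.61 to 11.68.

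KRT19, the type I keratin of simple and ductal epithelia that lacks the usual tail domain, did not pass the test. It had 11.59, 11.64 and 11.64 in the miR-205 arrays, against 11.61, 11.67 and 11.68 in the control arrays. The groups overlapped. Its log2 change was -0.03 ± 0.06 (SE), with a 95% interval of -0.16 to 0.10. The upper bound of that interval is lower than the lower bounds for KRT80 (1.08), KRT7 (0.74), KRT8 (0.74) and KRT18 (0.42).

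The remaining simple epithelial keratins did not pass either. KRT20, a type I keratin of intestinal epithelium, had 6.78, 6.58 and 6.56 with miR-205, against 6.44, 6.48 and 6.69 with the control, and the groups overlapped (log2 change 0.10, adjusted p = 0.471 by limma). KRT23, another type I keratin, had a log2 change of 0.0027 with a 95% interval of -0.26 to 0.26. Of the 6 simple epithelial keratins, 3 thus rose and 0 fell, against 12.6% and 14% of all genes. The median log2 change of the 6 was 0.32.

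Of 8 basal and stress-inducible keratins, 4 were measured. KRT15 rose and 3 did not pass, with a median of 0.07. Over all genes 12.6% rose and 14% fell. KRT5, which marks basal cells, had 5.67, 5.79 and 5.66 with miR-205, against 5.73, 5.55 and 5.68 with the control. These values overlapped. KRT14, its partner, averaged 7.51 ± 0.09 with miR-205 and 7.43 ± 0.22 with the control (SD, n = 3 each; log2 change 0.08, adjusted p = 0.644 by limma). KRT16, a stress-inducible type I keratin, averaged 7.01 ± 0.02 with miR-205 and 7.07 ± 0.22 with the control (log2 change -0.06, adjusted p = 0.715). Negative control replicate 2 was the lowest array for both KRT14 and KRT16, at 7.18 and 6.82. KRT14, KRT16 and KRT17 are close in sequence, and what such likeness adds to a probe set's signal was not tested.

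Among 15 keratins grouped here under upper or site-restricted stratified layers, KRT80 alone passed, while 12.6% of all genes rose and 14% fell. KRT80 is described above as a keratin of many epithelia, so this class is a loose one for it. The median of the 15 was 0.04, and the other members lay between -0.12 and 0.15. KRT10, the type I keratin of the upper epidermis, had a log2 change of 0.11 (adjusted p = 0.325 by limma), and KRT13, its counterpart in mucosal layers, one of -0.01 (0.936). KRT4, the partner of KRT13, was the sixth keratin whose miR-205 arrays all lay above the control arrays, at 0.15 (0.159). It was named after its values were seen.

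No keratin of the inner root sheath or hair shaft classes passed, while 12.6% of all genes rose and 14% fell. Of 9 keratins of the inner root sheath and the neighbouring companion layer, 0 rose and 0 fell, with a median of -0.09. Of 14 measured hair shaft keratins, 0 rose and 0 fell, with a median of 0.02 and a range of -0.20 to 0.14. KRT75, the type II keratin of the companion layer, had the lowest change of the family. It had 8.09, 8.03 and 8.30 with miR-205, against 8.24, 8.57 and 8.70 with the control. The highest miR-205 array reached above the lowest control array, negative control replicate 1. Its log2 change was -0.36 ± 0.12 (SE) and its adjusted p 0.0574 by limma. KRT75 was singled out after its values were seen, and without negative control replicate 1 its change was -0.49 (adjusted p = 0.0121). Without negative control replicate 3 it was -0.26 (adjusted p = 0.181), and without miR-205 replicate 2 it was -0.31 (0.173). The inner root sheath keratins KRT74 (-0.18, adjusted p = 0.061) and KRT73 (-0.14, 0.131) had all miR-205 arrays below all control arrays. In all, the groups did not overlap for 6 keratins upward and 2 downward of 48, against 19.9% and 22.2% of all genes.

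The chromosomal arrangement of the risers was not part of how members were chosen. It was described after their values were seen, and no test of position was run. Of the 21 measured keratins on chromosome 12, the 4 that rose lay at the 2 ends of the cluster. KRT80 (chr12:52168996-52192014, GRCh38.p14) and KRT7 (chr12:52233243-52255853) are the first of the 21 in gene order, and KRT8 (chr12:52897191-52949860) and KRT18 (chr12:52948855-52952906) are the last. The annotated spans of KRT8 and KRT18 overlap. None of the 17 measured keratins between KRT7 and KRT8 passed, while 26.6% of all genes passed in either direction. Of the 17, KRT5, KRT72, KRT73, KRT2, KRT1, KRT77, KRT76 and KRT78 lay below the yardstick described with the cell type markers. Their lack of a call does not show that they held steady. The keratins not analysed here, such as KRT81, KRT86 and the KRT6 genes, are missing from this order. The 3 nearest measured named genes on each side moved in both directions. Before KRT80 these were ATG101, an autophagy factor (log2 change 0.07, adjusted p = 0.499 by limma), NR4A1, an orphan nuclear receptor (2.59, 0.00183), and TAMALIN (-0.20, 0.0868). After KRT18, EIF4B, a translation initiation factor, fell by 0.30 (adjusted p = 0.00595), while the focal adhesion gene TNS2 (0.36, 0.00869) and SPRYD3 (0.34, 0.00415) rose. On chromosome 17, KRT15 (chr17:41513745-41518890) lies between KRT13 and KRT19, neither of which passed. KRT15 was the only riser among 27 measured keratins there, beside 4 of 21 on chromosome 12 and 12.6% of all genes. Of the genes flanking that cluster, TNS4 (0.89, adjusted p = 7.91e-05 by limma) and the chromatin remodelling gene SMARCE1 (0.34, 0.00977) rose on one side, while CCR7 there and EIF1, GAST and HAP1 on the other did not pass.

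**Figure D2:**
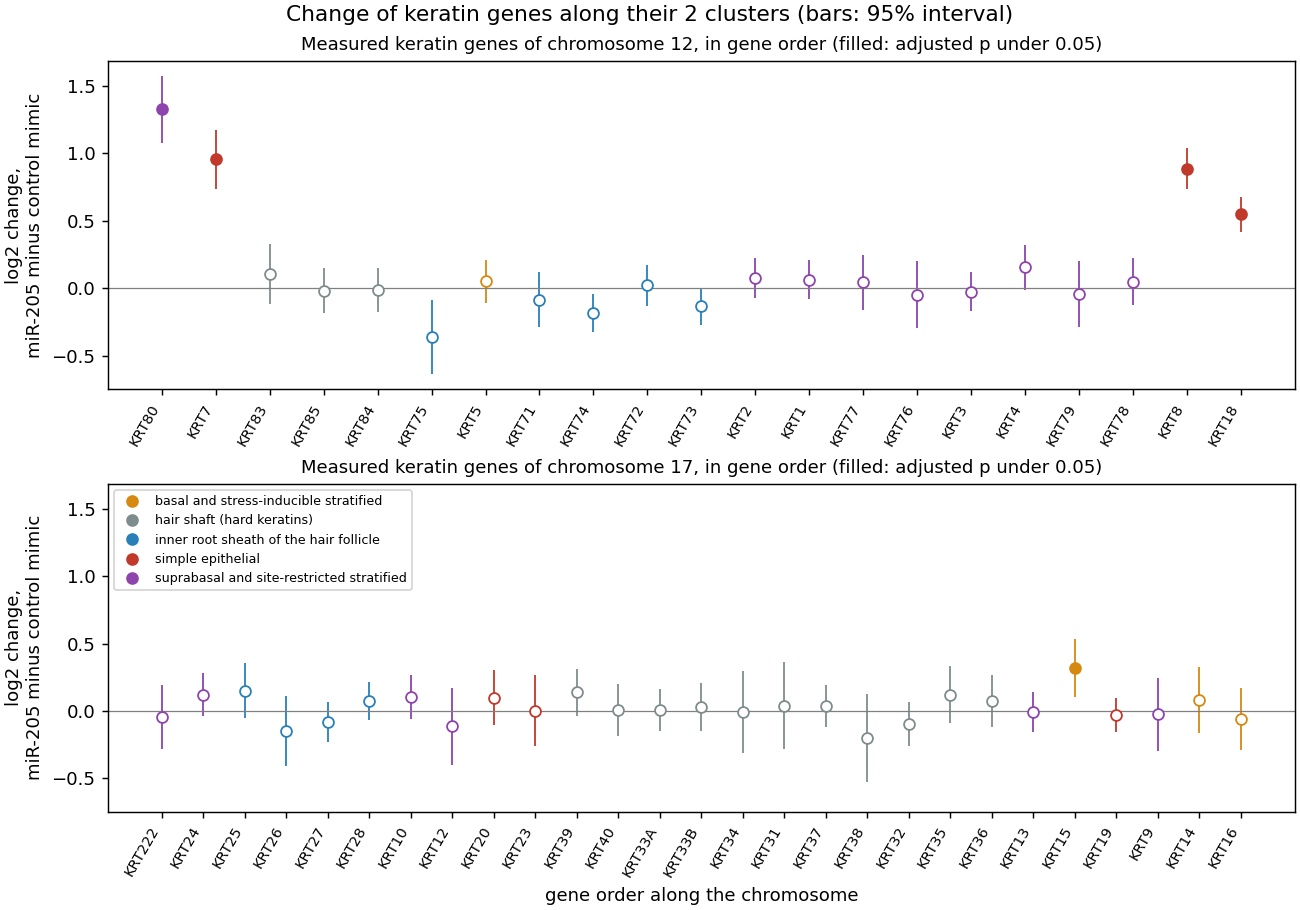
Log2 change (miR-205 minus control mimic) of each measured keratin in gene order along chromosome 12 (top, 21 genes) and chromosome 17 (bottom, 27 genes). Bars are 95% intervals from limma, filled points passed at an adjusted p under 0.05, and colours give the keratin class. The 4 risers of chromosome 12 sit at the ends of the row, from 0.55 for KRT18 to 1.33 for KRT80, and KRT15 stands at 0.32 on chromosome 17.

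Promoter windows, 250 bases before to 50 after an annotated start, were in the RefSeq table (GRCh38.p14) for 33 of the 48 keratins, and KRT8 was the only riser among them. The windows of KRT8 and KRT75 are shown because they belong to the riser with a window and to the member with the lowest change. The KRT8 window lies inside the annotated span of the gene and so belongs to one of several starts. Capitals mark matches to the motifs searched on both strands: CAGGTG (the E-box bound by ZEB and SNAI factors), TGANTCA (AP-1), GGGCGG (SP1), GCCNNNGGC (AP-2) and TATAAA (the TATA box).
KRT8 (chr12:52926420-52926719, minus strand): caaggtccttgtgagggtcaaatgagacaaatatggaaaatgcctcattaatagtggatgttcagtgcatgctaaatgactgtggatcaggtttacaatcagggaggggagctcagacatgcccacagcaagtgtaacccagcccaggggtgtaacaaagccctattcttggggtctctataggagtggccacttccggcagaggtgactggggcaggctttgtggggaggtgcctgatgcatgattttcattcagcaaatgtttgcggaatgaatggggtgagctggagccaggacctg
KRT75 (chr12:52434322-52434621, minus strand): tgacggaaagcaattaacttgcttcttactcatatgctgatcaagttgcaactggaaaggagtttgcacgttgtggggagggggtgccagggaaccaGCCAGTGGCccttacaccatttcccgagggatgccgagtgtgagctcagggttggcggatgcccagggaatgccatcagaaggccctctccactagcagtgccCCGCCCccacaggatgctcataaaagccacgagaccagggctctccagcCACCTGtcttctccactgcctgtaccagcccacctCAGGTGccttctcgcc
The KRT8 window held 0 of these motifs, which says only that these letters are not in these 300 bases. The KRT75 window held 4 matches that did not overlap each other, namely 2 of the E-box, 1 of SP1 and 1 of AP-2. The 33 keratins had 37 windows, since some have several starts. The TATA box letters were in 20 of these 37, against 11.53% of all 35114 windows, and the E-box letters in 8 of 37, against 20.59%. The SP1 letters were in 6 of 37 keratin windows, against 44.95% of all, the AP-2 letters in 5, against 23.2%, and the AP-1 letters in 0, against 7.71%.

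The shift within keratin pairs was also examined. For 5 type II and type I pairs, the type II signal minus the type I signal was taken in each array. The level of such a difference depends on the probes, so only its shift between the groups is read. KRT8 minus KRT18 was 0.05, 0.24 and 0.12 in the miR-205 arrays, against -0.17, -0.15 and -0.28 in the control arrays. The groups did not overlap, and the shift was 0.34 on the log2 scale. KRT7 minus KRT19 was -1.84, -1.91 and -2.00 in the miR-205 arrays, against -2.98, -2.70 and -3.03 in the control arrays, a shift of 0.99. These groups did not overlap either. Both shifts had an exact permutation p of 0.1 (two-sided), the smallest that 3 against 3 arrays allow, and 0.25 when adjusted over the 5 pairs. No pair could therefore pass 0.05. The pairs KRT5 with KRT14 (-0.03, exact p = 0.8), KRT1 with KRT10 (-0.04, exact p = 0.5) and KRT4 with KRT13 (0.16, exact p = 0.2) shifted less. KRT5, KRT1 and KRT10 averaged 5.68, 5.47 and 5.64 over the arrays, below the yardstick of 6.12 described with the cell type markers. Small shifts in their pairs are therefore not evidence of a steady balance.

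**Figure D3:**
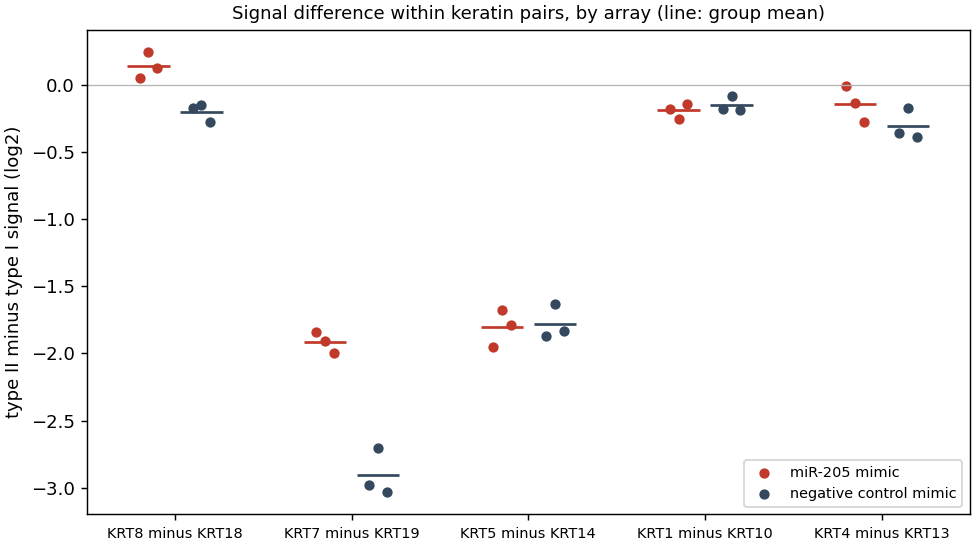
Type II minus type I signal (log2) for 5 keratin pairs in each array, with miR-205 arrays in red on the left and control arrays in blue on the right, and lines at group means. KRT8 minus KRT18 averaged 0.14 with miR-205 and -0.20 with the control, and KRT7 minus KRT19 averaged -1.92 and -2.90.

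Genes that link keratin filaments to junctions moved in both directions. Of 13 measured linkers of desmosomes and hemidesmosomes, 5 rose and 3 fell, while 5 did not pass, and the median log2 change was 0.07. Over all genes 12.6% rose and 14% fell. PPL, which encodes the plakin periplakin, had 8.26, 8.24 and 8.17 in the miR-205 arrays, against 7.30, 7.57 and 7.53 in the control arrays. The groups did not overlap, and PPL rose by 0.75 ± 0.08 (SE, adjusted p = 0.000351 by limma). PKP3, a plakophilin of the desmosomal plaque, rose by 0.73 ± 0.06 (adjusted p = 8.05e-05). ITGB4, the integrin subunit of hemidesmosomes, rose by 0.77 ± 0.09 (adjusted p = 0.000416). PKP1, another plakophilin, fell by 0.27 (adjusted p = 0.00877). The smaller changes were in JUP (0.29) and PKP2 (0.20), which rose, and in the plakins DST (-0.31) and PLEC (-0.28), which fell, all named after their values were seen. DSP, the plakin desmoplakin, chosen in the same way, had a log2 change of -0.05 (adjusted p = 0.616). The risers numbered 3 without miR-205 replicate 2, miR-205 replicate 3 or negative control replicate 1.

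Among other intermediate filament genes 0 of 15 rose and 5 fell, against 12.6% and 14% of all genes, and the median was -0.08. LMNB1, a nuclear lamin, had 8.76, 8.73 and 8.66 in the miR-205 arrays, against 9.32, 9.32 and 9.39 in the control arrays. It fell by 0.63 (adjusted p = 0.000188 by limma). SYNM, which encodes synemin, a partner of vimentin and desmin, fell by 0.53 (adjusted p = 0.000966), and LMNB2, another lamin, by 0.32 (adjusted p = 0.00706). VIM, the filament protein of mesenchymal cells, averaged 12.43 ± 0.01 with miR-205 and 12.68 ± 0.04 with the control (SD, n = 3 each). It fell by 0.26 (adjusted p = 0.00968). LMNA, named after its values were seen, was the fifth, at -0.20.

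Genes of the cornified envelope and epidermal differentiation mostly did not pass. Of 20 measured, 1 rose and 0 fell, against 12.6% and 14% of all genes, with a median of -0.02. The riser was PI3, an elastase inhibitor that is cross-linked into the envelope, at 0.32 (adjusted p = 0.0105 by limma), and without negative control replicate 2 there were 2 risers. Of 21 measured transcription factors known to act on keratin or other epithelial promoters, 3 rose and 3 fell, against 12.6% and 14% of all genes, with a median of -0.01. ELF3, an ETS factor of epithelial cells, had 9.51, 9.34 and 9.55 in the miR-205 arrays, against 7.66, 8.38 and 7.83 in the control arrays. Negative control replicate 2 stood above the other control arrays but below all miR-205 arrays. ELF3 rose by 1.51 ± 0.16 (SE, adjusted p = 0.000353). The related ETS factor EHF rose by 0.71 (adjusted p = 0.000217). ZEB1 fell by 0.82 (adjusted p = 9.43e-05) and GATA3, a factor of luminal epithelia, by 0.40 (adjusted p = 0.00159). The other calls were TFAP2C (-0.40), which fell, and RARG (0.21), which rose, both named after their values were seen. ZEB2, chosen in the same way, did not pass (-0.18, adjusted p = 0.119 by limma). It lay below the yardstick described with the cell type markers. With a robust variance and a trend, 6 of these factors rose.

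Of 11 measured keratin-binding chaperones, 14-3-3 proteins and caspases, 4 rose and 1 fell, against 12.6% and 14% of all genes, with a median of 0.15. SFN, the epithelial 14-3-3 protein that binds KRT17, averaged 10.95 ± 0.07 with miR-205 and 10.28 ± 0.03 with the control (SD, n = 3 each). It rose by 0.67 ± 0.06 (SE, adjusted p = 0.000149 by limma). The 14-3-3 genes YWHAB (0.33), YWHAE (0.23) and YWHAZ (0.20) also rose. The gene that fell was the 14-3-3 gene YWHAH (-0.19), named after its values were seen. Without miR-205 replicate 1, miR-205 replicate 3 or negative control replicate 3 there were 2 risers, and 0 fell when any 1 array was left out.

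**Figure D4:**
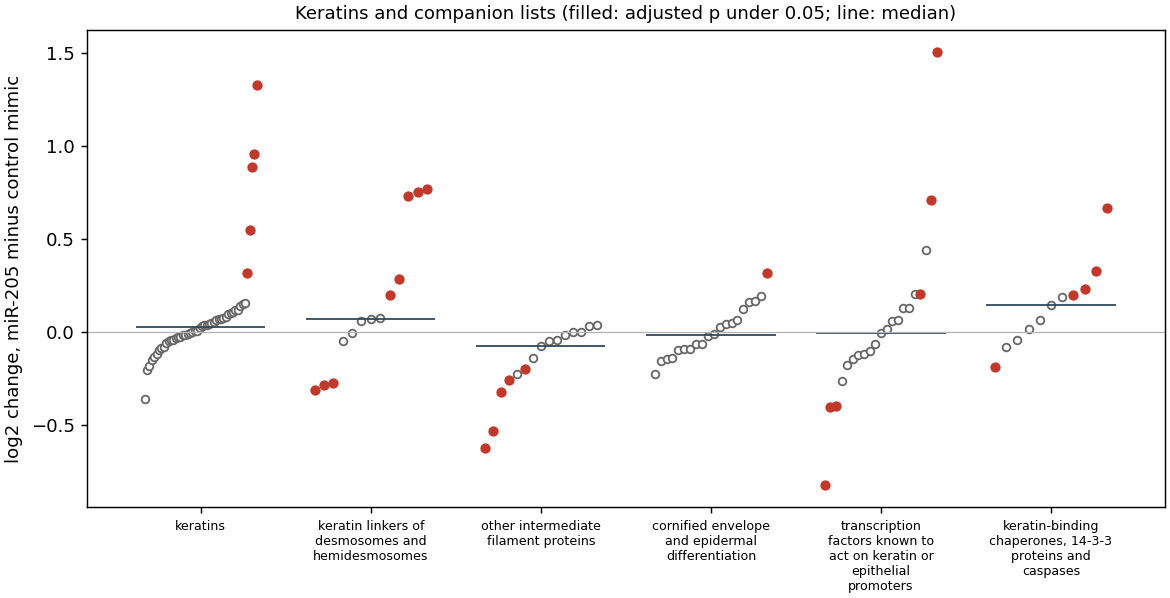
Log2 change (miR-205 minus control mimic) of the 48 keratins and of the measured genes in 5 companion lists. Each point is a gene, ordered by its change, filled where the adjusted p was under 0.05, and the line is the list's median. The median of the keratins was 0.03, that of the linkers 0.07, and that of the other intermediate filament genes -0.08.

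Markers of cell types were read with a yardstick, since no detection calls were used here. It was 6.12, the 95th percentile of the means of 361 olfactory receptor genes and pseudogenes, which most cells do not transcribe. Of the 48 keratins 23 lay above it, 7 of the 14 hair shaft keratins included, and so did 13373 of all 18417 genes. The yardstick therefore does not by itself show that a keratin or a marker gene is transcribed. KRT74 lay just above it by the mean of all arrays, with its miR-205 group below it, at 6.04. Among the keratins named above, KRT5, KRT1, KRT2, KRT10, KRT23, KRT72, KRT73, KRT76, KRT77 and KRT78 lay below the yardstick. The lack of a call for these does not show that their transcripts held steady. Counts of calls in the marker lists stand beside 12.6% of all genes that rose and 14% that fell. Of 4 measured epithelial markers 3 rose, 0 fell and all lay above the yardstick. EPCAM and CDH1 rose, with 9.12 and 8.19 in the miR-205 group, against 6.83 and 6.28 in the control group, as did ELF3, described above. CLDN7, a claudin, had 6.81 with miR-205 and 6.83 with the control and did not pass (adjusted p = 0.878 by limma). The mean over the 4 was 8.38 to 8.41 in miR-205 arrays and 6.83 to 7.14 in control arrays. Their part in the keratin result was not tested. Of 3 measured luminal prostate markers 1 lay above the yardstick, KLK2 at 6.38 with miR-205 and 6.39 with the control. KLK3, which encodes the secreted prostate-specific antigen, was below it, at 6.06 and 6.08. ACP3, prostatic acid phosphatase, was below it too, at 5.70 with miR-205 and 5.39 with the control, and rose (adjusted p = 0.00504 by limma). Of basal prostate markers other than keratins 4 of 4 lay above it (NGFR, ITGA6, CD44 and TRIM29). So did 4 of 7 fibroblast markers (COL1A1, COL1A2, COL3A1 and PDGFRB), 3 of 6 leukocyte markers (CD79A, CD14 and CD68) and 1 of 5 hepatocyte markers (APOA1). TRIM29 stood just above the yardstick by the mean of all arrays, but below it in the control group (6.01, against 6.27 with miR-205). Of these lists, 1 fibroblast gene rose, LUM, which was far below the yardstick at 3.40 with miR-205 and 3.03 with the control. No leukocyte or hepatocyte marker passed. The mean over the fibroblast list was 5.57 to 5.71 in miR-205 arrays and 5.53 to 5.62 in control arrays, and over the leukocyte list 5.92 to 5.94 and 5.96 to 6.002. The mean over the basal list was 9.47 to 9.54 and 9.45 to 9.53, with 0 higher and 1 lower, CD44 at -0.28.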

How the data were processed

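Per the submitters' processing notes, the authors used RMA and Affymetrix Expression Console 1.1.2. The deposited log2 values were taken as they stood. RMA forces the arrays to one distribution, so a shift shared by all transcripts would not be seen. The table held 33297 probe sets, of which 19460 carried 1 gene symbol in the platform annotation, for 18417 genes. The Entrez numbers of 19429 were found in the RefSeq gene table and 0 symbols needed an update. Control probe sets could not be told from the table. All 6 value columns were used.

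A two-sided limma fit (version 3.58.1, R 4.3.3; lmFit, then eBayes) had the group as its single term. Its p-values were adjusted by Benjamini-Hochberg over 18417 genes, and 0.05 was the threshold. The steps were tested on simulated data. Pairs of keratins were compared by exact permutation over arrays. The number of arrays limits the precision.

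The members, classes and lists were chosen with earlier results of these data known, so counts in them are descriptions. Keratins were named if they passed, if they belonged to a fixed set of simple, basal and stratified keratins, or if groups did not overlap at an unadjusted p under 0.05. From companion lists, up to 4 genes with the smallest p were named. Other named genes are marked as chosen after their values were seen, and the genes flanking the clusters were chosen by position. Listed genes with no single-symbol probe set are not reported here.

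Alternatives covered repeated quantile normalization, median centring, a filter on dim genes, averaged probe sets, all probe sets tested, a robust variance with a trend, array weights, a replicate block, a rule on unadjusted p and fold, and leaving out each array.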

Additional observations from a re-analysis of the deposited data

Results flagged for a closer look

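Among probe sets that name keratin sequence but were not used above, those higher with miR-205 at an adjusted p under 0.05 were flagged. The probe set of MIR492 and KRT19P2 was also higher, by 0.22, but did not pass (adjusted p = 0.0615 by limma over all 33297 probe sets). A probe set annotated to both MIR622 and KRT18 had 11.94, 11.93 and 12.03 in the miR-205 arrays, against 11.32, 11.34 and 11.39 in the control arrays. Its log2 change was 0.62 (adjusted p = 0.00185 by limma over all 33297 probe sets), beside 0.55 and 0.58 for the probe sets of KRT18 alone. The probe set of KRT10-AS1, an antisense transcript at KRT10, had 6.60, 6.58 and 6.73 in the miR-205 arrays, against 6.19, 6.36 and 6.27 in the control arrays, a change of 0.36 (adjusted p = 0.0203). KRT10 itself had a change of 0.11 and did not pass. With groups of 3 arrays, single arrays were not tested as outliers.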

How the results depend on the processing

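The rises of KRT80 (1.26 to 1.45), KRT7 (0.90 to 1.07), KRT8 (0.85 to 0.94) and KRT18 (0.51 to 0.57) kept their direction and stayed past the threshold in all 14 alternatives that refitted limma. By unadjusted p and fold, 3 keratins were higher, without KRT15 and KRT18. Lower keratins numbered 0 in the report and 0 to 1 with 1 array left out. They numbered 1 with repeated quantile normalization, a robust variance with a trend, or the replicate block. The dim-gene filter and array weights each gave 2. KRT74 passed the dim-gene filter only through its control group, at 6.23, while its miR-205 group lay below the cutoff, at 6.04. Its call under that filter is therefore not independent of the filter. The higher counts with 1 array left out were 4 to 5 keratins, 3 to 4 linkers, 1 to 2 envelope genes, 2 to 4 transcription factors and 2 to 4 chaperone and 14-3-3 genes, of which 0 fell. Repeated quantile normalization left 2 chaperone and 14-3-3 genes higher. The dim-gene filter gave 2 envelope genes and 5 transcription factors higher, array weights 5 factors and the robust variance 6. Testing all probe sets, and the replicate block, left 0 chaperone and 14-3-3 genes lower. By unadjusted p and fold, 403 genes were higher and 460 lower, with 3 linkers higher and 0 lower, 1 other filament gene lower, 0 envelope genes higher, 1 factor lower, and 1 chaperone or 14-3-3 gene higher and 0 lower. Signs turned for uncalled keratins near 0: KRT23 (-0.00017 with repeated quantile normalization, -0.0911 to 0.127 with 1 array left out), KRT13 (-0.0599 to 0.0307), KRT16 (-0.184 to 0.00306), KRT14 (-0.045 to 0.165) and KRT5 (-0.00054 to 0.0909). The causes were not tested. Deviations of arrays from their group means correlated weakly between equal replicate numbers (0.0626, 0.0912 and 0.0103). For each miR-205 array this was still its highest value, as unequal numbers gave -0.0855 to 0.0496. Whether equal numbers pair the arrays cannot be told from so few arrays. With the replicate block 5 keratins passed, KRT15 (0.32, adjusted p = 0.057) being lost and KRT75 (-0.36, adjusted p = 0.0233) added.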
